A study of Mus musculus with 7 samples.

Results

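The amyloid precursor family and its secretases were described here as 9 genes: the precursor App and its homologues Aplp1 and Aplp2, the β-secretase Bace1, the α-secretase Adam10, and the γ-secretase subunits Psen2, Ncstn, Aph1a and Psenen. They were chosen by gene symbol, and each was found by its Ensembl identifier among 48526 genes in the deposited table. All 9 had a mean value of at least 3 and entered the test with 17896 genes in all. Brain RNA came from mice of 24 months labelled DT, carrying the V1S and SV2 constructs, and both groups share the label of the fluorescent protein Venus. The 4 libraries labelled on carry the label glucose, and the 3 libraries labelled off carry the label Dox, so the state of the constructs and doxycycline cannot be told apart. Neither the promoter that drives the constructs nor the brain region is named in the labels. Whether the libraries came from different animals is not stated either, and p-values then reflect the variation among these 7 libraries, which may be technical. Values are log2-scale regularized logarithms (rlog), in which each gene's deviations are shrunken towards its mean, and the depth of each library is unknown.

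The amyloid precursor protein is a membrane protein with a large ectodomain that is cut in sequence. Cleavage by an α-secretase, of which the metalloprotease Adam10 is the main neuronal enzyme, releases the ectodomain and cuts within the amyloid β stretch. Cleavage by the aspartyl protease Bace1 instead exposes the start of amyloid β, and γ-secretase, an intramembrane protease built from a presenilin, nicastrin, an Aph1 protein and presenilin enhancer (Psenen), then frees the peptide and an intracellular tail. Aplp1 and Aplp2 are cut by the same kinds of enzyme but lack the amyloid β sequence.

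The cytoplasmic tail is the stretch the 3 family members share most clearly, and its motif is bound by adaptors of the Fe65 and X11 families, whose genes are described below. The 54 coding bases around this motif are shown 5′ to 3′ from the principal transcripts of GENCODE M21 (GRCm38), with capitals for bases identical in all 3 genes.
App: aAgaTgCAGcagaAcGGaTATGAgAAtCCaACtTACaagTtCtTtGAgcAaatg
Aplp1: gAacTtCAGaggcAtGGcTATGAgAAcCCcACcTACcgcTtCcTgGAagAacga
Aplp2: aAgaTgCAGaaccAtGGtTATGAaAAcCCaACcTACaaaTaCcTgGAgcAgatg
They lie in the last exon on the minus strand, at chr16:84955340-84955393 for App, chr7:30435299-30435352 for Aplp1 and chr9:31150880-31150933 for Aplp2. In this stretch 28 of the 54 bases were identical in all 3 genes, with 41 shared by App and Aplp2, 35 by Aplp1 and Aplp2 and 32 by App and Aplp1. The App gene spans 84949685 to 85173766 on chromosome 16, Aplp1 30434982 to 30445535 on chromosome 7 and Aplp2 31149557 to 31211815 on chromosome 9, all on the minus strand. Reads were summed per gene, so App transcripts with and without the alternatively spliced exons cannot be told apart.

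The regions before the start sites are shown for the family, and whether they have a part in the patterns between libraries described below was not tested. These are the 250 bases before the RefSeq start (GRCm38.p6), 5′ to 3′ on the gene's strand, at chr16:85173708-85173957 for App, chr7:30445583-30445832 for Aplp1 and chr9:31211849-31212098 for Aplp2, with capitals for the GC box, searched as GGGCGG on both strands.
App: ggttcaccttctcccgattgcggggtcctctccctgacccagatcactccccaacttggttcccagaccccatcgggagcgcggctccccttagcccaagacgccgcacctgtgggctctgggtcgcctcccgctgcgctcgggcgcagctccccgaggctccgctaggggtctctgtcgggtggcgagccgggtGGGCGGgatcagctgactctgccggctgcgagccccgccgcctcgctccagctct
Aplp1: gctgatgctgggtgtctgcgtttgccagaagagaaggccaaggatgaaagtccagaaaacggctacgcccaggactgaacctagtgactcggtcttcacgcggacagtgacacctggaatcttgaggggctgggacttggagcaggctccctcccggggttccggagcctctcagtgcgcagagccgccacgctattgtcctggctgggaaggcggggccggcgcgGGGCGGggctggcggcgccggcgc
Aplp2: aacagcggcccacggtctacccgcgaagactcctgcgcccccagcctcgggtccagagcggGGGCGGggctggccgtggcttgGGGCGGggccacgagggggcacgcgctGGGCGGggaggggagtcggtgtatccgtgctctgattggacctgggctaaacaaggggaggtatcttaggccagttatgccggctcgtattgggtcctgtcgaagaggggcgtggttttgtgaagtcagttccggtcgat
The GC box occurred 3 times before Aplp2 and 1 time each before App and Aplp1. Of the 10 windows found for 8 of the 9 genes (Bace1 had none in the table), 6 held it, against 32.7% of 32851 windows of the same length. The TATA box, searched as TATAAA on both strands, was in none of the 10 windows, against 12.4% of all windows. The CCAAT box, searched as CCAAT on both strands, was in 4 of the 10, against 33.8%. Psen2 and Psenen had more than 1 window each, so the 10 windows are not separate genes. GC content was 70.8% before App, 66.4% before Aplp2 and 66.0% before Aplp1, with a median of 52.4% over all windows.

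The labelled tissue was checked against markers. All 5 neuronal, 5 astrocyte, 5 oligodendrocyte and 5 microglial markers were present, and no list had a marker at 0. The summed level of the neuronal markers (log2 scale) was 17.41 to 17.49 in on and 17.43 to 17.56 in off, with none of the 5 past the test. The 4 endothelial markers summed to 11.94 in on replicate 1, between 12.32 and 12.38 in the other on libraries and between 11.93 and 12.25 in off, with none past the test. Choroid plexus markers were present too, with a summed level of 14.65 to 15.02 in on and 14.83 to 14.89 in off. Olfactory bulb markers summed to 9.78 to 10.01 in on and 10.15 to 10.18 in off. Of their 5 genes 3 passed the test described below, in which 2.6% of all tested genes passed. The summed level of 5 nuclear noncoding RNAs (Malat1, Meg3, Snhg11, Snhg14 and Miat) was 17.94 in on replicate 1, between 18.33 and 18.37 in the other on libraries and between 17.81 and 18.04 in off. In the same test 2 of the 5 passed, beside that 2.6%. The part of these markers in the results below was not tested. Values also followed transcript length differently between libraries: across genes, which are not independent, Spearman's rho of a gene's deviation with the length of its longest transcript was -0.0592 in on replicate 1, between 0.274 and 0.291 in the remaining on libraries and between -0.316 and -0.233 in off. The main differences below are given as deposited and after removal of each library's smooth trend with GC content and length. In whole tissue, fewer cells of a type and less RNA per cell cannot be told apart.

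Levels were high for the precursors and lower for the enzymes. As values per kilobase of exonic sequence (log2 scale, mean ± SD over the 7 libraries), Aplp1 was at 13.41 ± 0.13, App at 12.19 ± 0.03 and Aplp2 at 12.10 ± 0.02. Adam10 stood at 9.64 ± 0.06, Bace1 at 9.42 ± 0.04 and Ncstn at 9.14 ± 0.02. Psenen followed at 8.67 ± 0.10, Aph1a at 7.64 ± 0.06 and Psen2 at 6.97 ± 0.04. Every neighbouring pair in this order differed by more than the SD of either gene. The distance of App from Aplp2 was small beside the uncertainty in length, since the annotated exons of App add up to 12996 bases while its principal transcript has 3176. With the principal transcript App was the highest of the 9 at 14.22, above Aplp1 at 13.78. With the longest or the principal transcript Psenen, at 9.51, did not differ from its neighbours Ncstn and Bace1 by more than its own SD. The 3 precursors stayed above the 6 enzyme genes with each of the 3 lengths tried.

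None of the 9 genes passed the test between on and off (limma on all 17896 genes, Benjamini-Hochberg threshold 0.05), in which 2.6% of all genes did. At an unadjusted p under 0.05 there were 2, Aplp1 and Psenen, and both had negative differences, on minus off. Of all tested genes 20.7% were at an unadjusted p under 0.05, so the share of the members, 22.2%, was close to that background. The median difference of the 9, on minus off, was -0.02 on the log2 scale, with 7 negative and 2 positive, against a median of 0.00 over all tested genes.

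**Figure D1:**
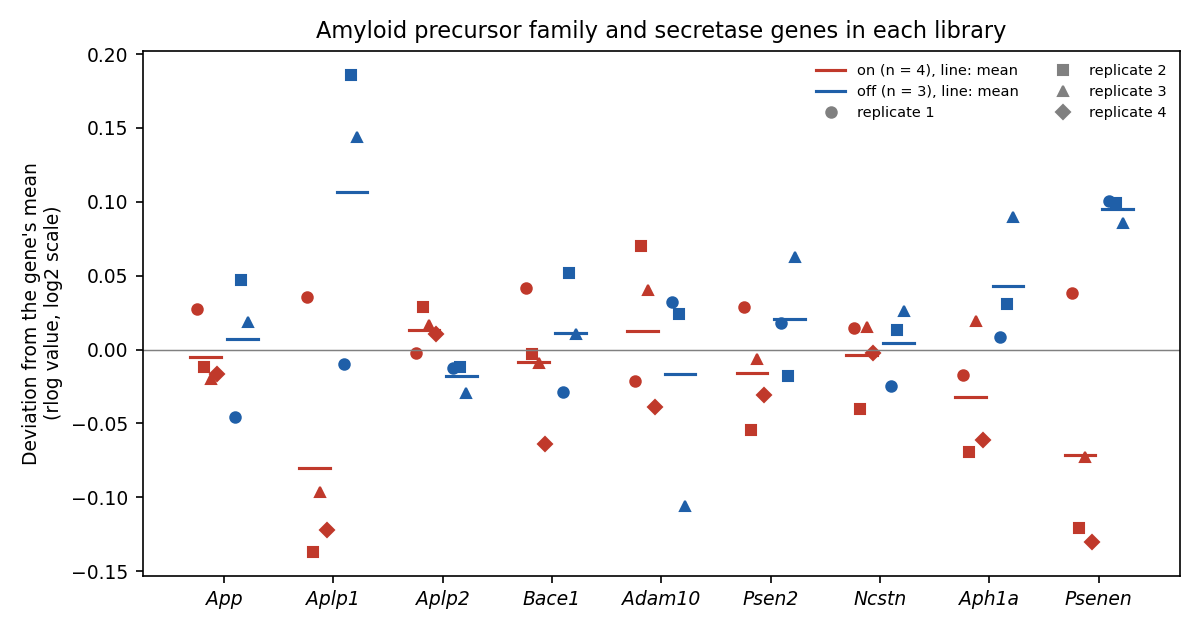
Values of the 9 genes in each of the 7 libraries, as the deviation of the rlog value from the gene's mean (log2 scale), with on in red, off in blue, symbols for the replicate number and lines for group means. For Aplp1 and Psenen on replicates 2 to 4 lie below the off libraries and on replicate 1 lies above the other on libraries, while App spans less than 0.1 over all libraries.

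App (ENSMUSG00000022892) was nearly level across the 7 libraries. Its values were 15.92, 15.88, 15.87 and 15.87 in on replicates 1 to 4 and 15.84, 15.93 and 15.91 in off replicates 1 to 3. The groups overlapped, with off replicate 1 the lowest and off replicate 2 the highest of all. The difference was -0.01 ± 0.04 (SE, adjusted p = 0.906), with a 95% interval of -0.10 to 0.08, or a fold between 0.930 and 1.06. Some of its exonic bases, 113 in number, lie opposite the antisense gene Gm49227.

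Aplp1 (ENSMUSG00000006651), the homologue expressed mostly in neurons, had the lowest difference of the 9. Its values were 15.04, 14.87, 14.91 and 14.89 in on and 15.00, 15.19 and 15.15 in off. The 3 on libraries other than replicate 1 lay below every off library, but on replicate 1 lay above off replicate 1, so the groups overlapped. The difference was -0.19 ± 0.05 (SE, adjusted p = 0.0838), with a 95% interval of -0.30 to -0.07. It passed in limma without on replicate 1 (-0.23 ± 0.05, SE, adjusted p = 0.00633) and without off replicate 1 (-0.24 ± 0.05, SE, adjusted p = 0.0463), fits in which 16.3% and 1.74% of all genes passed. It also passed with weights for the quality of each library (-0.21 ± 0.05, SE, adjusted p = 0.0146), as Psenen did (-0.18 ± 0.05, SE, adjusted p = 0.0223), where 12.4% of all genes passed. Aplp1 did not pass with any other single library left out (adjusted p between 0.197 and 0.304) or with the replicate number as a block (0.372). After the GC and length correction it was -0.08 ± 0.03 (SE, adjusted p = 0.23).

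Aplp2, the homologue found in most tissues, moved the other way by a small amount. Its values were 14.66, 14.69, 14.67 and 14.67 in on and 14.65, 14.65 and 14.63 in off. Every on library lay above every off library, within a total range under 0.06. The difference of 0.03 ± 0.04 (SE) did not pass (adjusted p = 0.667). The moderated error exceeds the spread within each group (SD 0.01 in both), since limma draws it towards that of genes of like abundance. Of the 9 genes 2 had groups that did not overlap, Aplp2 and Psenen, against 15.2% of all tested genes.

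Bace1 (chr9:45838580-45864399, plus strand), the β-secretase, had 12.13, 12.09, 12.08 and 12.03 in on and 12.06, 12.14 and 12.10 in off. The groups overlapped throughout and the difference was -0.02 ± 0.04 (SE, adjusted p = 0.811, 95% interval -0.10 to 0.06). After the correction it was -0.06 ± 0.03 (SE, adjusted p = 0.384). Its exons share 975 bases with Rnf214 on the opposite strand, and whether the counting used strand is not stated, so reads of the overlap may be shared. This holds too for the overlaps of other members given below. Adam10 (chr9:70678997-70780229, plus strand), the α-secretase, had 11.92, 12.01, 11.98 and 11.90 in on and 11.97, 11.96 and 11.83 in off. Here too the groups overlapped, with off replicate 3 the lowest, and the difference was 0.03 ± 0.04 (SE, adjusted p = 0.749). The 95% interval of -0.06 to 0.12 corresponds to folds between 0.956 and 1.09.

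Among the γ-secretase subunits, Psenen (ENSMUSG00000036835, chr7:30561863-30563627, minus strand), which completes the complex and triggers presenilin cleavage, had the lowest difference. Its values were 9.05, 8.90, 8.94 and 8.89 in on and 9.12, 9.12 and 9.10 in off. All on libraries lay below all off libraries, with on replicate 1 the nearest to off. The difference was -0.17 ± 0.05 (SE, adjusted p = 0.0977, 95% interval -0.28 to -0.06). Without on replicate 1 it passed in limma at -0.20 ± 0.05 (SE, adjusted p = 0.00963), where 16.3% of all genes did. It did not pass with any other single library left out (adjusted p between 0.162 and 0.279) or with the replicate number as a block (0.385). After the GC and length correction it was -0.06 ± 0.04 (SE, adjusted p = 0.435). Psenen has the shortest transcript of the 9, 708 bases, and its exons share 119 bases with U2af1l4 and 111 with Gm49396 on the opposite strand.

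Aph1a (chr3:95893969-95898288, plus strand), a scaffold subunit, had 9.41, 9.36, 9.45 and 9.37 in on and 9.43, 9.46 and 9.52 in off. The groups overlapped through on replicate 3, and the difference was -0.08 ± 0.05 (SE, adjusted p = 0.374). It shares 445 exonic bases with Car14 on the other strand. Ncstn (chr1:172066013-172082795, minus strand), the substrate receptor, had 11.14, 11.09, 11.14 and 11.13 in on and 11.10, 11.14 and 11.15 in off, a difference of -0.01 ± 0.04 (SE, adjusted p = 0.928). Its exons share 195 bases with Copa on the opposite strand. Psen2 (chr1:180227004-180263438, minus strand), a catalytic subunit, had 9.12, 9.03, 9.08 and 9.06 in on and 9.11, 9.07 and 9.15 in off. Its groups overlapped, and the difference was -0.04 ± 0.05 (SE, adjusted p = 0.699, 95% interval -0.14 to 0.06).

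**Figure D2:**
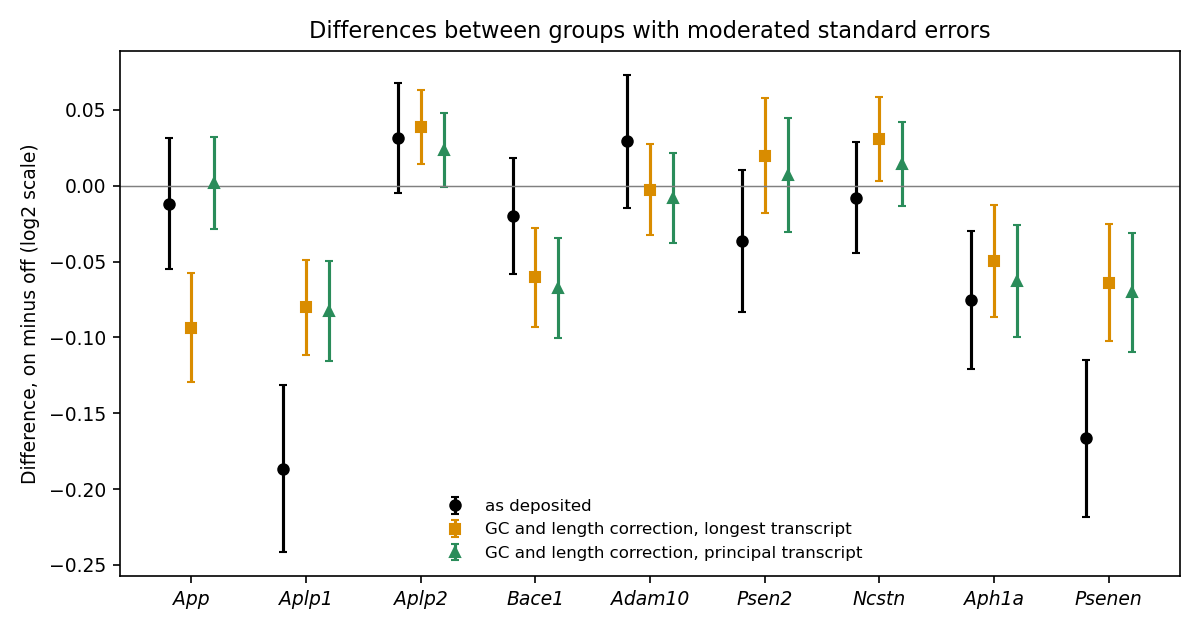
Difference between groups, on minus off on the log2 scale, for the 9 genes, with points for the estimate and bars for 1 moderated standard error, as deposited (black) and after the GC and length correction by the longest (orange) or principal (green) transcript. Aplp1 moves from -0.19 to -0.08 with either transcript, and App moves from -0.01 to -0.09 with the longest transcript alone.

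The correction for GC content and length moved the members unequally. None of the 9 passed after it, in which 0.499% of all genes did. Aplp1 and Psenen came closer to 0, while App moved away from 0 to -0.09 ± 0.04 (SE, adjusted p = 0.223). That value for App depends on the transcript that represents the gene. GENCODE lists a longest App transcript of 8167 bases, and with the principal transcript of 3176 bases the corrected difference was 0.00 ± 0.03 (SE, adjusted p = 0.982). For Aplp1 the principal transcript gave -0.08 ± 0.03 (SE, adjusted p = 0.235), the same as the longest. By the longest transcript and without on replicate 1, App (-0.12 ± 0.03, SE, adjusted p = 0.0268) and Aplp1 (-0.10 ± 0.03, SE, adjusted p = 0.0486) passed, in a fit in which 9.45% of all genes did.

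Relations between members within a library were compared as differences of their values, which need no length. Aplp1 minus App was -0.87, -1.005, -0.96 and -0.99 in on and -0.84, -0.74 and -0.75 in off. Every on library lay below every off library, with group means of -0.95 ± 0.06 (SD, n = 4) and -0.78 ± 0.06 (SD, n = 3). After the correction by the longest transcript the means were -0.87 and -0.89 and the groups overlapped, and by the principal transcript they were -0.92 and -0.83 and did not overlap. Bace1 minus Adam10, the β-secretase against the α-secretase, was 0.21, 0.08, 0.10 and 0.12 in on and 0.09, 0.18 and 0.27 in off. These groups overlapped, with means of 0.13 ± 0.06 (SD, n = 4) and 0.18 ± 0.09 (SD, n = 3).

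Within γ-secretase, Psenen minus Ncstn was -2.09, -2.19, -2.20 and -2.24 in on and -1.99, -2.03 and -2.05 in off. The on libraries were the 4 lowest, also after the correction with either transcript, when the distance between group means shrank from -0.16 to -0.09 and -0.08. Aph1a minus Ncstn was -1.73, -1.73, -1.70 and -1.76 in on and -1.67, -1.68 and -1.64 in off. These groups did not overlap either, and the distance of -0.07 between their means was -0.08 after the correction with either transcript. Psen2 minus Ncstn overlapped, with means of -2.05 in on and -2.02 in off. Aplp2 minus App and Aplp2 minus Aplp1 overlapped as deposited and after the correction with either transcript. All of these pairs were set side by side after the values were known and carry no test. The share of all gene pairs whose groups do not overlap was not computed, so these counts have no background.

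**Figure D3:**
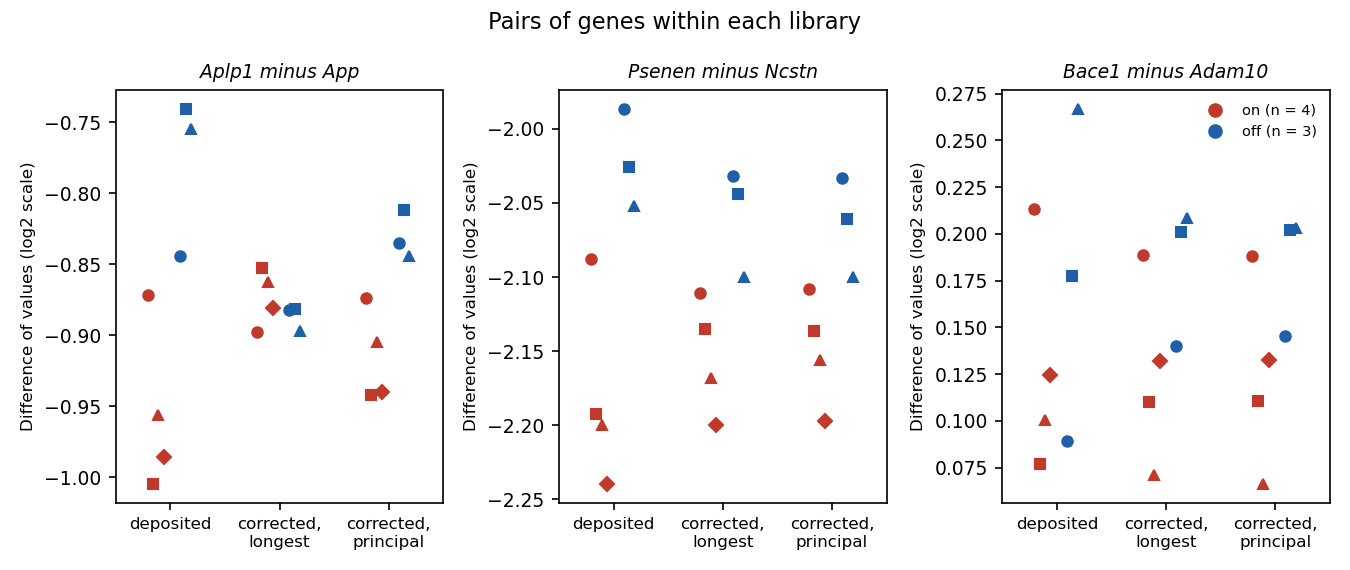
Difference between the values of 2 genes in the same library (log2 scale), for Aplp1 minus App, Psenen minus Ncstn and Bace1 minus Adam10, as deposited and after the correction by the longest or principal transcript, with 1 point per library, on in red and off in blue. Psenen minus Ncstn is lower in all 4 on libraries in each of the 3 versions, and Bace1 minus Adam10 overlaps in each.

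The members fell into patterns across the 7 libraries, described by Pearson's r with no test, since the libraries share the group and the length trend. App and Bace1 had r = 0.82, and 0.82 also for deviations from the group means. Aplp1 and Psenen had 0.87, and 0.65 for deviations from the group means. App and Aplp1 had 0.74, and 0.95 for deviations from the group means. Aplp2 ran opposite to several members, at -0.86 with Aplp1, -0.89 with Psenen, -0.83 with Psen2 and -0.82 with Aph1a. For deviations from the group means these were -0.61, -0.60, -0.88 and -0.55 in that order. Adam10 was most like Aplp2 (0.67). The 6 pairs of γ-secretase subunits were all positive as deposited, between 0.37 (Ncstn and Psenen) and 0.78 (Psen2 and Aph1a). After the correction by the principal transcript these 6 pairs ran from -0.43 to 0.74, while Aplp1 and Bace1 had 0.95 and Aplp2 and Psenen -0.80. App and Bace1 then had 0.47, Adam10 and Aplp2 -0.33, Aplp1 and Psenen 0.82 and Aplp1 and Aplp2 -0.73. After the correction by the longest transcript App and Bace1 had 0.89, Adam10 and Aplp2 -0.19, Aplp1 and Psenen 0.80 and Aplp1 and Aplp2 -0.82. App and Aplp1 had 0.98 (0.52 by the principal transcript), Aplp1 and Bace1 0.92 and Aplp2 and Psenen -0.88. The 6 γ-secretase pairs then ran from -0.86 to 0.59. With each library's rho for length, the deposited values of Psenen, Aplp1 and Aplp2 had r of -0.98, -0.83 and 0.91. The remaining members lay between -0.68 and 0.33. With each library's rho for GC content, r was 0.90 for Aplp1, 0.87 for Aph1a, 0.84 for Psen2, 0.79 for Ncstn and 0.78 for Psenen. It was 0.66 for App, 0.60 for Bace1, -0.71 for Adam10 and -0.89 for Aplp2. The part of either trend in these patterns was not tested.

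**Figure D4:**
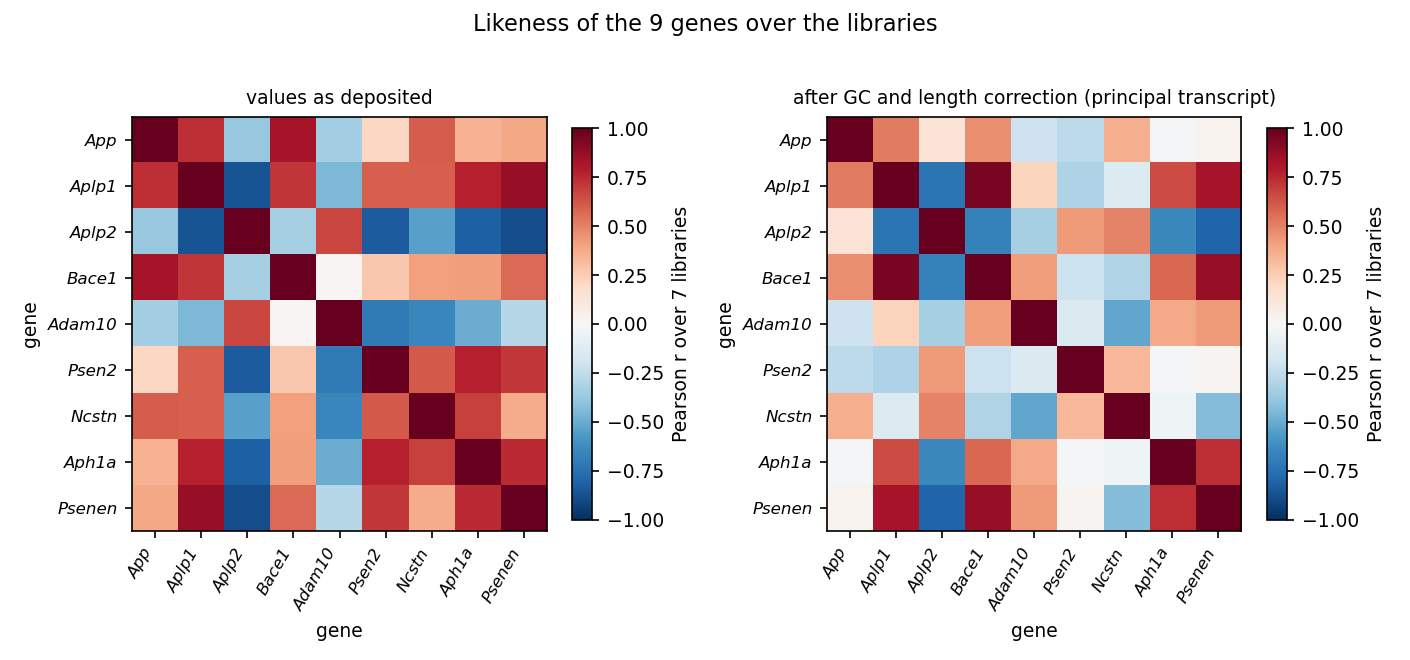
Pearson's r between each pair of the 9 genes over the 7 libraries, from -1 (blue) to 1 (red), for the deposited values and after the GC and length correction by the principal transcript. Aplp2 is negative with Aplp1 and Psenen in both panels, and the pairs of γ-secretase subunits, positive in the first, run from -0.43 to 0.74 in the second.

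The genes most like single members over all tested genes were found by the same measure. For App they were Tfip11 (r = 0.98), Rita1 (0.97) and Adamts7 (0.97), and 61 genes had r over 0.9. For Bace1 they were the macrophage gene Mpeg1 (0.98), the death receptor Tnfrsf21 (0.97) and the growth factor Bmp4 (0.97), with 44 genes over 0.9. For Adam10 they were Emc2 (0.98), Myadm (0.97) and the ubiquitin ligase Trim2 (0.97), with 111 over 0.9. For Psen2 they were Cmtm3 (0.99), the matrix protein gene Efemp2 (0.98) and Rnaseh2a (0.97), with 123 over 0.9. No other member was among these nearest genes. Among 17896 genes in 7 libraries, some reach r over 0.9 with no relation to a member. The number expected was not computed, so these counts and names are a description only.

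The wider pathway was described with 6 lists of 92 genes from textbook knowledge, of which 91 were tested. Of these 91 genes 1 passed in limma, Hes5, lower in on, where 2.6% of all genes passed in either direction and 1.79% in that direction. Hes5 is a Notch target, and Notch is the best known other substrate of γ-secretase. Its values were 7.74, 7.57, 7.61 and 7.57 in on and 7.77, 8.01 and 8.09 in off. The groups did not overlap, and Hes5 fell by 0.33 ± 0.07 (SE, adjusted p = 0.0348). With single libraries left out it did not pass when on replicate 2 (adjusted p = 0.0833), 3 (0.115) or 4 (0.106) or off replicate 2 (0.179) or 3 (0.147) was missing, and after the GC and length correction it was -0.16 ± 0.06 (SE, adjusted p = 0.194).

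Of 17 substrates of Bace1 and Adam10 none passed in limma, and 6 were at an unadjusted p under 0.05 (20.7% of all tested genes were). Of the 17 differences 14 were positive (51.5% of all tested genes), with a median of 0.03. The median was 0.02 after the correction by the longest and 0.01 by the principal transcript. The longest transcripts of these genes had a median of 6055 bases, against 3158 over all tested genes. Nrg1, the growth factor neuregulin 1 and a Bace1 substrate in myelination, had 9.53, 9.56, 9.50 and 9.38 in on and 9.34, 9.31 and 9.33 in off. All on libraries lay above all off libraries, and the difference was 0.17 ± 0.05 (SE, adjusted p = 0.0878), and 0.10 ± 0.05 (SE, adjusted p = 0.312) after the correction by the longest transcript. By the principal transcript, which is shorter, it stayed at 0.17 ± 0.05 (SE, adjusted p = 0.11). Chl1, a neural cell adhesion molecule cut by Bace1, had 12.98, 13.02, 12.98 and 12.97 in on and 12.90, 12.91 and 12.84 in off. Its groups did not overlap either, and it differed by 0.10 ± 0.04 (SE, adjusted p = 0.121). The correction left 0.04 ± 0.03 (SE, adjusted p = 0.557). Without on replicate 1 Nrg1 passed (0.16 ± 0.05, SE, adjusted p = 0.0494), in the fit in which 16.3% of all genes did, and with the correction as well it did not (0.08, adjusted p = 0.322). Nrg1 passed with no other single library left out.

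Of the 17 γ-secretase substrates and Notch targets, Hes5 passed and 16 did not, with a median of -0.02. At an unadjusted p under 0.05 there were 4, or 23.5% beside 20.7% of all tested genes. The other Notch targets, none of which passed, were at -0.13 (Hes1), -0.08 (Hey1), 0.00 (Hey2) and -0.06 (Heyl). The receptors, which did not pass either, were at 0.01 (Notch1), 0.17 (Notch2), 0.04 (Notch3) and 0.13 (Notch4). Of the 5 other secretases and homologues none passed, and the smallest p were those of Adam17, the inducible α-secretase, at 0.12 ± 0.05 (SE, adjusted p = 0.227), and Adam9 at 0.04 ± 0.04 (SE, adjusted p = 0.509). Aph1b and Aph1c are near copies of each other, so their values (differences of 0.01 and -0.02) are uncertain. Adam17 had 9.76, 9.97, 9.96 and 9.84 in on and 9.78, 9.79 and 9.72 in off, so the groups overlapped through on replicate 1. It passed without on replicate 1 (0.16, adjusted p = 0.0296), where 16.3% of all genes did, and with no other single library left out. After the correction Adam17 was at 0.07 ± 0.05 (SE, adjusted p = 0.455), and with on replicate 1 also left out at 0.11 (adjusted p = 0.134).

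The controls of secretase maturation gave 0 of 17 genes past the limma threshold and 3 at an unadjusted p under 0.05, or 17.6% beside 20.7% of all tested genes. Tspan5, a tetraspanin that carries Adam10 to the cell surface, had 12.49, 12.46, 12.50 and 12.42 in on and 12.57, 12.67 and 12.58 in off. Every on library was lower, and the difference was -0.14 ± 0.04 (SE, adjusted p = 0.0754). It passed after the GC and length correction, at -0.19 ± 0.03 (SE, adjusted p = 0.0271), and by the principal transcript at -0.20 (adjusted p = 0.0305). Tspan5 was the 1 gene of the 91 past the threshold after either correction, in which 0.499% and 0.387% of all genes passed. Tspan33, another tetraspanin of that group, had 9.53 to 9.66 in on and 9.69 to 9.79 in off, a difference of -0.15 ± 0.05 (SE, adjusted p = 0.098). Corrected by the longest transcript it was -0.18 ± 0.05 (SE, adjusted p = 0.107), and by the principal transcript -0.09 ± 0.04 (SE, adjusted p = 0.257).

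For sorting and adaptors of the precursor 23 of 24 genes were tested, and the gene without a symbol match was Apbb3, a further Fe65 gene. None of the 23 passed in limma, and 7 were at an unadjusted p under 0.05, or 30.4% beside 20.7% of all tested genes. Of the adaptors that bind the tail shown above, the Fe65 genes Apbb1 and Apbb2 and the X11 genes Apba1, Apba2 and Apba3 all had overlapping groups. Apbb1 had 13.69, 13.50, 13.59 and 13.53 in on and 13.65, 13.80 and 13.73 in off, with on replicate 1 above off replicate 1. It differed by -0.15 ± 0.05 (SE, adjusted p = 0.122), and by -0.19 ± 0.04 (SE, adjusted p = 0.00983) without on replicate 1, where 16.3% of all genes passed. The GC and length correction left -0.05 ± 0.03 (SE, adjusted p = 0.465) for Apbb1. The differences of the other 4 adaptors were 0.02 (Apbb2), 0.01 (Apba1), 0.01 (Apba2) and -0.01 (Apba3). Lrp8, a reelin receptor, had 11.80, 11.92, 11.94 and 11.92 in on and 11.74, 11.71 and 11.75 in off. The groups did not overlap, and the difference of 0.16 ± 0.04 (SE) lay just outside the threshold (adjusted p = 0.0502), and inside it after median centring (adjusted p = 0.0446) or with a minimum mean of 5 (0.0487). After the GC and length correction Lrp8 was at 0.11 ± 0.03 (SE, adjusted p = 0.134), and by the principal transcript at 0.16 ± 0.04 (SE, adjusted p = 0.0868). Sorl1, a sorting receptor that holds the precursor in the Golgi, had 14.15 to 14.31 in on and 14.03 to 14.10 in off. Its difference was 0.15 ± 0.05 (SE, adjusted p = 0.093), and 0.04 ± 0.03 (SE, adjusted p = 0.644) after the correction. The longest transcript of Sorl1 has 10715 bases.

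Of 12 genes for degradation and clearance of amyloid β none passed in limma, and 4 were at an unadjusted p under 0.05, or 33.3% beside 20.7% of all tested genes. The smallest p was that of Ece1, a metalloprotease that degrades the peptide, with 11.17, 11.18, 11.37 and 11.32 in on and 11.05, 11.07 and 11.14 in off. Its groups did not overlap, and the difference was 0.17 ± 0.05 (SE, adjusted p = 0.0859) and 0.18 ± 0.04 (SE, adjusted p = 0.0961) after the correction. Cst3, the cysteine protease inhibitor cystatin C, had 14.58, 14.29, 14.26 and 14.32 in on and 14.48, 14.64 and 14.64 in off. On replicate 1 lay among the off libraries. The difference was -0.22 ± 0.07 (SE, adjusted p = 0.0956), and -0.06 ± 0.04 (SE, adjusted p = 0.496) after the correction.

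Without on replicate 1, 17 of the 91 pathway genes passed in limma, 9 higher and 8 lower, in a fit in which 16.3% of all genes passed. Across the 100 members and pathway genes, which are not independent replicates, the difference rose with the length of the longest transcript. Spearman's rho was 0.506 as deposited. It was -0.0738 after the correction, which removes each library's trend with this length, so a small value was fixed in advance. Of the 15 genes with transcripts under 2500 bases 14 had a negative difference, Aplp1, Psenen and Psen2 among them, and of the 9 with over 9000 bases 8 had a positive difference. The trend with length given above for each library was found over all tested genes and is not particular to this pathway. The shares over all tested genes of these lengths were not computed. Whether length has a part in any single difference was not tested.

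**Figure D5:**
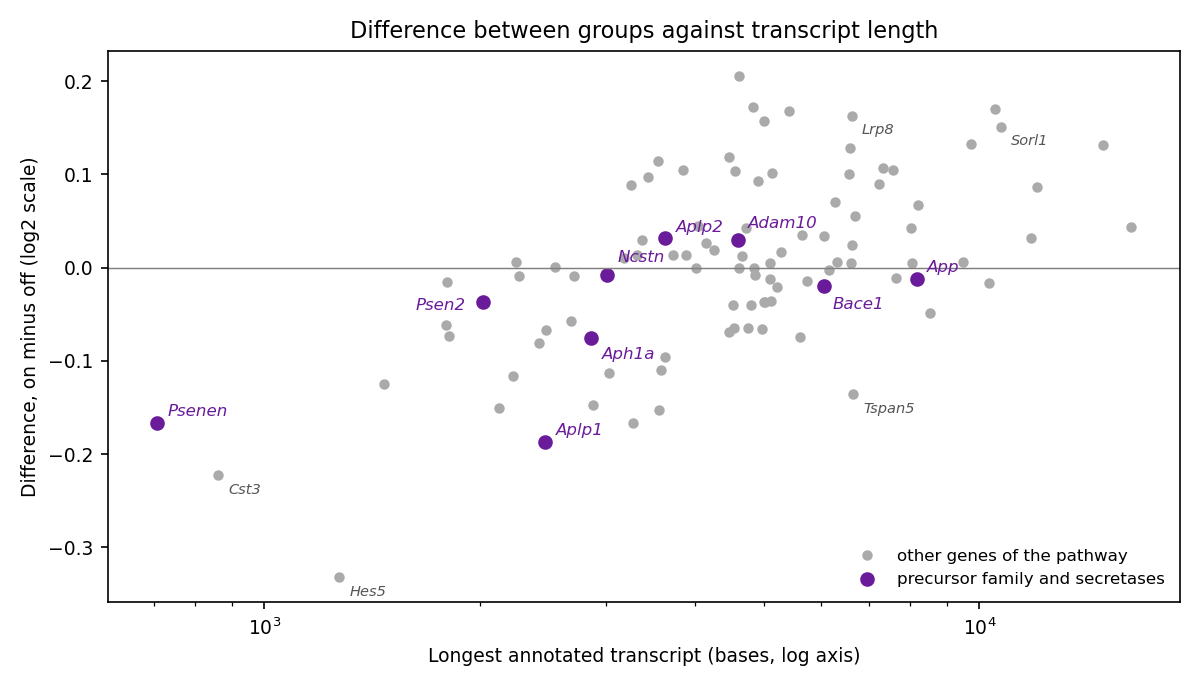
Difference between groups, on minus off on the log2 scale, against the length of the longest annotated transcript in bases (log axis), with 1 point per gene, the 9 members in purple and 91 pathway genes in grey. Hes5, Cst3, Psenen and Aplp1 lie low at short lengths, and Tspan5 lies below genes of like length.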

How the data were processed

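The deposited table holds 1 column per library of rlog values on the log2 scale for 48526 genes. The authors' software, per the submitters' processing notes, included DESeq2 (1.16.1), Subread (1.5.3), STAR (2.5.2), BWA (0.7.14-r1136) and cutadapt (1.9.1), with build GRCm38, and no role or order is given for them. No annotation release, filter or strand setting is stated. Per the labels' protocols, extraction used Qiagen miRNeasy and library preparation the TruSeq Stranded mRNA kit (Illumina).

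Symbols were matched for 48058 identifiers (99.0%), and GENCODE M21 gave positions, transcript lengths and GC content. A group term was fitted in limma (3.58.1, R 4.3.3) for the 17896 genes with a mean value of 3 or more, with variances moderated along an intensity trend, and p-values are two-sided and Benjamini-Hochberg adjusted over these genes. Errors are moderated standard errors (SE) or standard deviations (SD). The correction removed from each library a smooth trend of deviations with GC content and log length (mgcv 1.9.3, in 3 abundance classes) and covered 17831 tested genes. Alternatives were other filters, scalings, variance models and thresholds, the replicate number as a block, and each library left out in turn. The correction by the principal transcript, and that without on replicate 1, were chosen after seeing the data. No 2 libraries held identical values.

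Named were all 9 members, genes of each other list past the threshold, or the 2 with the smallest p where none passed, and the 3 genes most like App, Bace1, Adam10 and Psen2, leaving out model numbers. Markers, the Fe65 and X11 genes, the Notch receptors and their targets other than Hes5, Aph1b, Aph1c, overlapping and neighbouring genes fall outside that rule. They were named after their values were seen. 1 gene of the lists is not reported here and was left out of their counts. The members and lists were chosen with earlier results of these data known.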

Additional observations from a re-analysis of the deposited data

Results flagged for a closer look

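Dixon's gap criterion was applied to the on group for 27 values (members, named pathway genes and pairs). In 2 of them 1 library stood far from the other 3, and about 1.35 would be met by chance, at 1 in 20. App was at 15.92 in on replicate 1 and at 15.87 to 15.88 in the others. Cst3 was at 14.58 in on replicate 1 and at 14.26 to 14.32 in the others. Both values lie in the range of the off libraries.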

How the results depend on the processing

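The count of all genes called, 466, was 8 with no filter, 237 without the intensity trend, 2215 with array weights, 1182 at a threshold of 0.1, 89 after the GC and length correction, 69 with the principal transcript in it and 1685 with it and on replicate 1 left out, and 43 (without off replicate 2) to 2917 (without on replicate 1) with 1 library left out (175, 57 and 85 without on replicates 2, 3 and 4, 311 without off replicate 1 and 74 without off replicate 3). The count of members, 0, was 2 with array weights (Aplp1 and Psenen, where 12.4% of all genes passed), 2 at a threshold of 0.1 (the same genes), 2 with the correction and on replicate 1 left out (App at -0.12, adjusted p = 0.0268, and Aplp1 at -0.10, adjusted p = 0.0486, where 9.45% of all genes passed), and 0 to 2 with 1 library left out. The count of pathway genes, 1, was 0 with no filter, 2 with a mean of 5 or more, 2 after median centring (Lrp8 joining Hes5 in both), 14 with array weights, 9 at a threshold of 0.1, 12 with the correction and on replicate 1 left out, and 0 to 17 with 1 library left out (0 where on replicate 2 or 3 or off replicate 2 or 3 was missing, 2 where off replicate 1 was and 17 where on replicate 1 was). After the correction with either transcript it was 1, Tspan5 in place of Hes5.

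With the replicate number as a block, 30 of all genes, 0 members and 0 pathway genes passed in limma, and with the block and the correction together 2, 0 and 0. Deviations from the group means correlated at -0.23, -0.10 and 0.02 for the 3 same-numbered pairs, so the numbers were not taken as pairing the samples.

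Aplp1, Aplp2, Aph1a and Psenen kept their sign under all 19 alternatives. App changed sign under quantile normalization (0.0134) and the correction by the principal transcript (0.00188), and ranged from -0.0382 to 0.00824 (without off replicate 2) with 1 library left out. Bace1 then ranged from -0.0396 to 0.000545 (without off replicate 2), Adam10 from -0.0153 (without off replicate 3) to 0.0537 and Ncstn from -0.0228 to 0.00432 (without on replicate 2; 0.00262 without off replicate 3). Adam10 was at -0.00266 after the correction, -0.00517 with on replicate 1 also left out and -0.00815 by the principal transcript. After the correction, with the block in it, with on replicate 1 left out and by the principal transcript, Psen2 was at 0.0198, 0.0218, 0.0188 and 0.0072 and Ncstn at 0.0306, 0.026, 0.0337 and 0.0145. The cause was not tested.

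Levels per kilobase were 12.86 for App with its longest and 14.22 with its principal transcript, 13.70 and 13.78 for Aplp1, 12.80 for Aplp2 with both, 9.49 for Bace1 with both, 9.74 for Adam10 with both, 8.07 and 8.09 for Psen2, 9.54 and 9.59 for Ncstn, 7.91 for Aph1a with both and 9.51 for Psenen with both. Depth is unknown, so no counting error could be given.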

Other observations

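Aplp1 and Psenen, the members with the lowest differences, lie on chromosome 7 with 116327 bases between them. The 6 tested genes between them differed by -0.04 (Kirrel2), -0.09 (Nphs1), -0.06 (Arhgap33), 0.11 (Proser3), 0.00 (Hspb6) and -0.12 (Lin37), with a median of -0.05 and none past the limma threshold. The region was looked at after the differences were known, so these are values only.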
